A study of Mus musculus with 11 samples.

Results

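The cortical hem is a strip of neuroepithelium at the medial edge of the embryonic cortex, next to the choroid plexus, and it secretes Wnt proteins. Described here are 10 of the 20475 genes listed in each table of the series: the Wnt ligand genes Wnt2b, Wnt3a, Wnt5a and Wnt8b, the R-spondin genes Rspo1, Rspo2 and Rspo3, the hem transcription factor gene Lmx1a, and Axin2 and Lef1, which are read as transcriptional outputs of the pathway. The members were found by gene symbol, and all 10 were present in both tables. They were chosen by name, with their knockout against wild-type differences in these libraries already known, so those differences are given as a description and carry no test.

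A Wnt ligand binds a Frizzled receptor and an LRP co-receptor, which stops the destruction of β-catenin and lets it switch on target genes together with TCF/LEF factors. R-spondins do not start the signal. They bind LGR receptors and draw the ubiquitin ligases ZNRF3 and RNF43 away from Frizzled, so that more receptor stays on the cell surface. In the medial cortex, Wnt signals from the hem are known for the growth and patterning of the hippocampus.

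RNA from E12.5 mouse cortex was measured by RNA-seq in 11 libraries, each from embryos with or without the mitotic kinesin gene Kif20a, to compare gene expression between wild-type and mutant littermates. The germline comparison holds 3 wild-type and 3 homozygous knockout libraries. The knockout carries a knockout-first allele, in which a LacZ and neomycin cassette interrupts Kif20a in every cell, and the strain came from a single embryonic stem cell clone whose chimeras were crossed to C57BL/6J. The inducible comparison holds 2 wild-type and 3 knockout libraries. Its knockouts are Nestin-CreERT2; Kif20a fl/fl embryos, in which the cassette had been removed with FLP and Cre, active after tamoxifen at E9.5 and E10.5, deletes Kif20a in Nestin-expressing progenitors. The labels call both control groups wild type, and the study describes littermate controls given the same tamoxifen, Kif20a fl/fl without Cre in its experiments at birth. The allele of the inducible controls at E12.5 is not given in the sources used here. The labels name the tissue forebrain and the cells neural, whereas the study names cortex. How many embryos went into a library is not stated, so p-values measure the spread between these libraries only.

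Values are counts that the authors normalized within each table, so levels are never compared between the germline and the inducible table. Normalized totals ran from 13048716 to 15551274 in the germline and from 24118520 to 24497307 in the inducible libraries; the depth in reads is not kept in these values. The germline wild-types held 2456, 2295 and 2680 normalized counts of Kif20a, and the germline knockouts 409, 374 and 503. The inducible wild-types held 4760 and 4844, and their knockouts 3125, 2915 and 2853, so every library fitted its label. The log2 fold change was -2.54 ± 0.15 (SE) for the germline and -0.70 ± 0.057 for the inducible knockouts, with limma adjusted p of 0.00845 and 0.0107. Leaving out a germline wild-type or germline knockout replicate 1 gave adjusted p of 0.106 to 0.185, and leaving out an inducible wild-type or inducible knockout replicate 2 gave 0.142 to 0.193. The exact permutation test gave p = 0.1 in each, the smallest value 3 against 3 or 2 against 3 libraries allow. Transcript of Kif20a thus stood at 17.3% of the wild-type mean in the germline and at 61.7% in the inducible knockouts.

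Some libraries stood apart in markers of other tissue. Germline knockout replicate 1 had a median log2 difference of 3.83 from the wild-type mean over 8 diencephalon markers and 1.84 over 10 cranial mesenchyme markers. Germline knockout replicate 2 lay at -4.86 over the mesenchyme and at -2.01 over the endothelial markers. Y-linked transcripts were at most 3.17 normalized counts in both inducible wild-type libraries, while Kdm5d measured 1350, 1259 and 1386 in the 3 knockouts, so the sex of the embryos and the genotype cannot be told apart in that comparison. In the germline table wild-type replicate 2 and knockout replicates 1 and 2 held at most 4.97 of each such transcript, and the other 3 libraries at least 291.

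RefSeq promoter windows, the 250 bases before a start site, were at hand for 7 of the members (10 windows, 4 of them for Lef1). Wnt5a, Rspo2 and Rspo3 had no entry. The windows are from GRCm38.p6, and each matched 1 place in NCBIM37, the mm9 build of the authors' alignment, whose coordinates are given. Shown are Wnt8b and Rspo1, whose groups did not overlap in either comparison, and Axin2, the member most used as a pathway readout. Also shown is the 1 window with a TCF/LEF core. Lmx1a, whose groups did not overlap either, has a window in an intron of its gene that is not shown. The first 3 windows shown lie directly before their gene models. The Lef1 window lies in an intron of its gene, before an internal start. Capitals mark that core.
Wnt8b, chr19:44567712-44567961, plus strand: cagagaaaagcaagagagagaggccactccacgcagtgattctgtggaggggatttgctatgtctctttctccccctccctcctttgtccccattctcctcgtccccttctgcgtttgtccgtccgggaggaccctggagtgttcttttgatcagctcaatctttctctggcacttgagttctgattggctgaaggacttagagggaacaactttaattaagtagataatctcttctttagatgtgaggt
Rspo1, chr4:124663424-124663673, plus strand: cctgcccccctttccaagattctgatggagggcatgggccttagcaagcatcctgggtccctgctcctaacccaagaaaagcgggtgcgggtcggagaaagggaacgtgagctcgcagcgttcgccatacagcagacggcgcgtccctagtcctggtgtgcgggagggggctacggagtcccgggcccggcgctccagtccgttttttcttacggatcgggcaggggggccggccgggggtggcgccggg
Axin2, chr11:108781413-108781662, plus strand: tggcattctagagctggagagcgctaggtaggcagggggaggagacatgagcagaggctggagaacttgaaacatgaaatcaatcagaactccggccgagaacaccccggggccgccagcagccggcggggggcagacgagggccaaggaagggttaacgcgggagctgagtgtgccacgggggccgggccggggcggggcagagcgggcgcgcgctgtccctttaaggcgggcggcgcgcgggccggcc
Lef1, chr3:130858962-130859211, plus strand: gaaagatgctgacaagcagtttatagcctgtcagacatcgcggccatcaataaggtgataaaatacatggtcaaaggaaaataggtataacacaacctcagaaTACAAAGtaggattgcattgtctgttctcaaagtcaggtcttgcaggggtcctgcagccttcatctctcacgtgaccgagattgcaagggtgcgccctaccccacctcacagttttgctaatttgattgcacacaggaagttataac
The core searched for on both strands was CTTTGNN, where each N stood for A or T alone. It was found in 1 of the 10 windows, in the Lef1 window shown, as the reverse complement starting 147 bases before the start site. Of all 32817 RefSeq windows of this length 14.8% held it, and 10 of 69 windows of the other Wnt pathway genes (14.5%) did. These letters are a description of the windows and say nothing of binding.

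Levels in wild-type cortex are given first. They are normalized counts per kilobase of merged exon, which allows genes to be compared within a table (lengths from GENCODE M1, which merge all isoforms and so lower the level of genes with long alternative ends). In the germline wild-type libraries Rspo3 was highest, at 404 ± 82.3 per kilobase (SD, n = 3). It was followed by Rspo1 (247 ± 91.6), Wnt8b (247 ± 108), Axin2 (227 ± 34.3) and Rspo2 (180 ± 66.8), among which neighbours overlapped in range. Lmx1a, Wnt2b and Lef1 formed a lower group, overlapping in range, with means between 68.7 and 71.4, and Wnt5a and Wnt3a lay lowest, at 40.3 ± 6.44 and 38.1 ± 11.8.

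In the inducible wild-type libraries Rspo1 led with 915 ± 133 per kilobase (SD, n = 2), followed by Wnt8b with 824 ± 70.4 and Rspo3 with 756 ± 121. These neighbours overlapped in range. Rspo2 and Axin2 came next, at 556 ± 100 and 508 ± 68.3. The other members lay between 66.4 for Wnt5a and 161 for Lmx1a. Per length, then, Wnt8b was the highest of the 4 Wnt ligands in both tables, and Rspo1 and Rspo3 stood beside or above it.

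**Figure D1:**
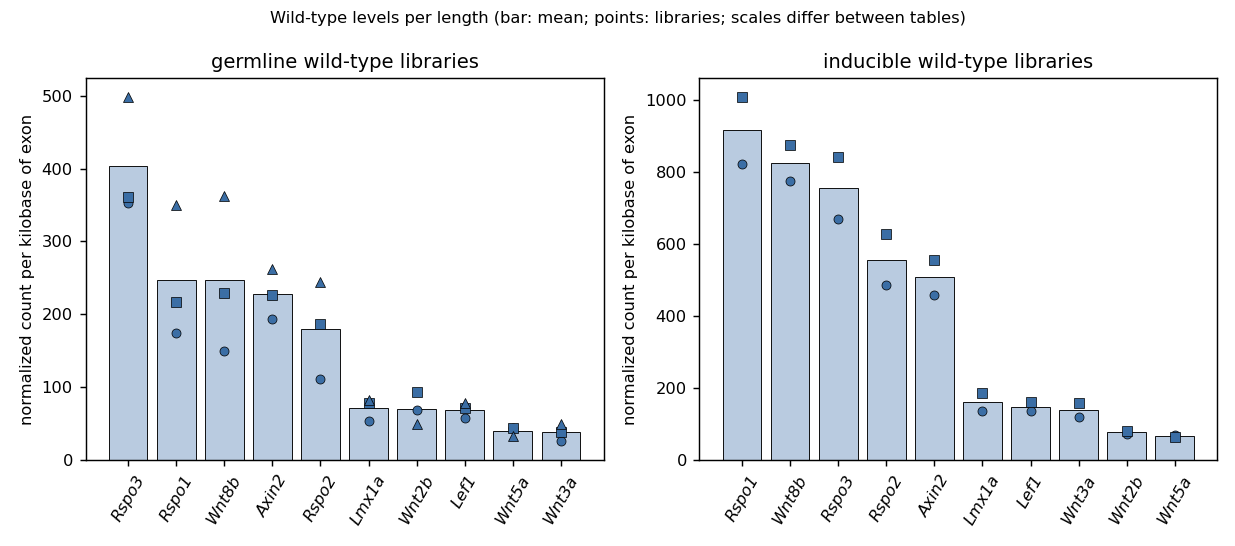
Normalized counts per kilobase of merged exon (vertical axes, starting at 0 and differing between the tables) for each of the 10 genes in the wild-type libraries; bars are means and points are libraries. Rspo1, Rspo3 and Wnt8b are the 3 highest genes in both panels, and Wnt5a lies at 40.3 and 66.4.

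The next question was how each gene stood in knockout libraries. In the germline comparison the fitted log2 fold change, knockout minus wild-type, was above 0 for all 10 members, with a median of 0.58 against -0.043 over all 13938 genes tested. In the inducible comparison it was below 0 for all 10, with a median of -0.49 against -0.0019 over 14081 genes. All 10 passed the filter on low values in both tables. The members were picked with these directions known, so nothing is read from the counts.

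Wnt8b (chr19:44567962-44588763, plus strand of mm9, as for the positions that follow) encodes a Wnt ligand of the hem and the neighbouring hippocampal primordium. It measured 504, 774 and 1224 normalized counts in the germline wild-types and 1236, 1434 and 1769 in the knockouts. All knockouts lay above all wild-types, although wild-type replicate 3 stood just under knockout replicate 1. The log2 fold change was 0.90 ± 0.32 (SE), and 0.59 without wild-type replicate 1. In the inducible comparison Wnt8b measured 2614 and 2950 in the wild-types and 2389, 2121 and 1214 in the knockouts, a change of -0.60 ± 0.26. Here all knockouts lay below, replicate 3 far below the other two, and without replicate 3 the change was -0.30.

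Wnt3a (chr11:59061535-59104254, minus strand), a hem ligand needed for the hippocampus to form, measured 72.2, 106 and 137 normalized counts in the germline wild-types and 110, 233 and 159 in the knockouts. The groups overlapped, since knockout replicate 1 lay under wild-type replicate 3. The log2 fold change was 0.65 ± 0.36, and it was 0.40 without wild-type replicate 1 and 0.38 without knockout replicate 2. In the inducible libraries Wnt3a measured 326 and 439 in the wild-types against 288, 310 and 158 in the knockouts, without overlap and with a change of -0.64 ± 0.29, or -0.34 without knockout replicate 3.

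Wnt2b and Wnt5a differed least among the ligands. Wnt2b (chr3:104747723-104764627, minus strand) encodes a ligand made in the hem, and it measured 243, 333 and 175 normalized counts in the germline wild-types and 172, 581 and 244 in the knockouts. Knockout replicate 2 stood above the wild-type range and replicate 1 just below it, and the log2 fold change of 0.26 ± 0.46 became -0.24 without knockout replicate 2. Leaving out any other single library gave 0.027 to 0.64. The inducible values were 260 and 290 in the wild-types and 306, 301 and 116 in the knockouts. Knockout replicates 1 and 2 lay above both wild-types and replicate 3 below, and the change of -0.32 ± 0.39 became 0.14 without replicate 3 and -0.55 and -0.54 without replicates 1 and 2.

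Wnt5a (chr14:29317936-29340633, plus strand), a ligand best known for signalling that does not pass through β-catenin, measured 348, 340 and 257 normalized counts in the germline wild-types and 535, 446 and 336 in the knockouts. Knockout replicate 3 fell inside the wild-type range, and the log2 fold change was 0.46 ± 0.22. Its inducible values were 545 and 494 against 550, 511 and 355. Only knockout replicate 3 left the wild-type range downward, and the change of -0.16 ± 0.18 became 0.032 without it, -0.28 without knockout replicate 1 and -0.089 when wild-type replicate 1 was left out.

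The R-spondin gene Rspo2 (chr15:42852357-43002364, minus strand) measured 368, 618 and 810 normalized counts in the germline wild-types and 1030, 1569 and 973 in the knockouts. The groups did not overlap, and the log2 fold change of 1.03 ± 0.32 was the largest of the 10. Its inducible values were 1613 and 2085 in the wild-types and 1473, 1309 and 596 in the knockouts, again without overlap. That change was -0.81 ± 0.35, and without knockout replicate 3 it was -0.40.

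Rspo1 (chr4:124663674-124686343, plus strand) measured 339, 420 and 679 normalized counts in the germline wild-types and 710, 907 and 793 in the knockouts. All knockouts lay above, the gap between the groups being small next to the range within the wild-types, and the log2 fold change was 0.80 ± 0.26. In the inducible libraries it measured 1592 and 1956 in the wild-types and 1196, 1265 and 639 in the knockouts. All 3 knockouts lay below, and the change of -0.84 ± 0.28, the largest fall of the 10, was -0.52 without knockout replicate 3.

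Rspo3 (chr10:29172915-29255673, minus strand) was the R-spondin whose groups overlapped in both comparisons. It measured 843, 863 and 1194 normalized counts in the germline wild-types and 1538, 1859 and 1064 in the knockouts, with knockout replicate 3 inside the wild-type range and a log2 fold change of 0.60 ± 0.24. The inducible values were 1605 and 2015 in the wild-types and 1794, 1577 and 855 in the knockouts. Knockout replicate 1 fell between the wild-types and replicate 3 lay lowest, and the change of -0.42 ± 0.29 shrank to -0.097 without replicate 3 and to -0.26 without wild-type replicate 2.

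**Figure D2:**
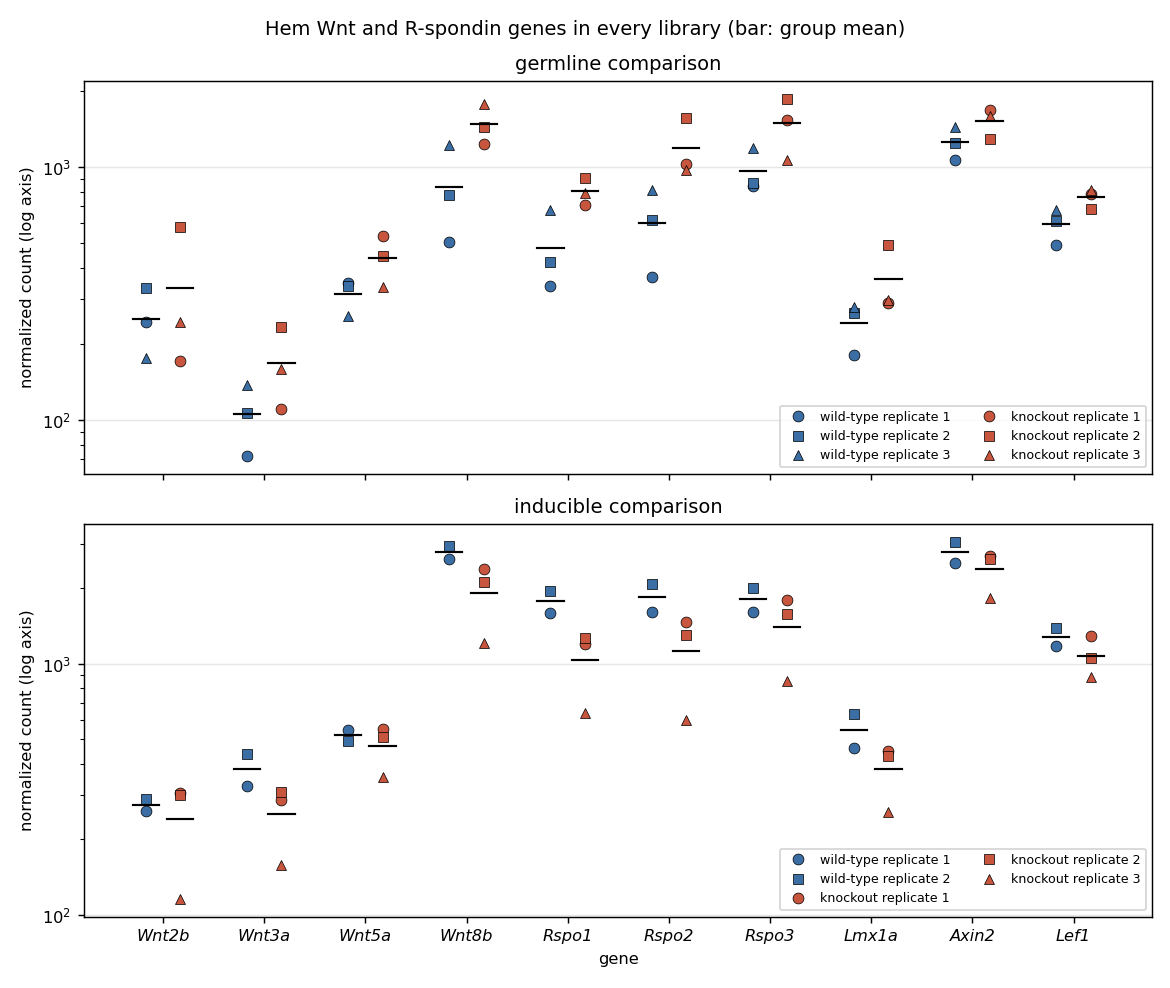
Normalized count of each gene (vertical log axes) in every library of the germline (top) and inducible (bottom) comparison; marker shape gives the replicate number and the bar the group mean. Inducible knockout replicate 3 is the lowest library for all 10 genes, and germline wild-type replicate 1 is the lowest for 8.

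Lmx1a (chr1:169619370-169778872, plus strand) encodes a LIM homeodomain factor that specifies the hem. It measured 180, 265 and 281 normalized counts in the germline wild-types and 290, 494 and 299 in the knockouts, and knockout replicates 1 and 3 stood just above the highest wild-type. The log2 fold change was 0.56 ± 0.28, or 0.36 when wild-type replicate 1 and 0.31 when knockout replicate 2 was left out. In the inducible libraries it measured 462 and 633 in the wild-types and 451, 430 and 258 in the knockouts, with replicate 1 just under the lower wild-type and a change of -0.55 ± 0.25. When knockout replicate 3 was left out the change was -0.30, and when wild-type replicate 2 was, -0.33. The medians of the 4 ligands were 0.56 and -0.46.

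The 2 outputs of the pathway had medians of 0.32 and -0.25, nearer 0 than the ligand medians, although germline Wnt2b and inducible Wnt5a lay nearer still. Axin2 (chr11:108781663-108812097, plus strand), a target gene whose protein feeds back to destroy β-catenin, measured 1063, 1249 and 1441 normalized counts in the germline wild-types and 1683, 1294 and 1585 in the knockouts. Knockout replicate 2, the highest library for Wnt2b, Wnt3a, Lmx1a and all 3 R-spondins, was the lowest knockout for Axin2 and fell inside the wild-type range. The log2 fold change was 0.28 ± 0.17, or 0.17 without wild-type replicate 1. The inducible values were 2529 and 3061 against 2697, 2616 and 1832, overlapping, with a change of -0.25 ± 0.17. It was -0.067 without knockout replicate 3, and -0.11 and -0.38 without wild-type replicates 2 and 1.

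Lef1 (chr3:130813389-130927274, plus strand), which encodes the TCF/LEF factor that is itself induced by Wnt signalling, measured 494, 613 and 676 normalized counts in the germline wild-types and 781, 684 and 815 in the knockouts. The groups narrowly missed overlapping at knockout replicate 2, and the log2 fold change was 0.36 ± 0.16, or 0.235 without wild-type replicate 1. In the inducible libraries Lef1 measured 1179 and 1384 in the wild-types and 1290, 1055 and 884 in the knockouts. Knockout replicate 1 lay between the wild-types, and the change of -0.26 ± 0.15 ran from -0.40 to -0.13 over single libraries left out, nearest 0 without knockout replicate 3.

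Counted together, 5 members had every germline knockout above every wild-type (Wnt8b, Rspo1, Rspo2, Lmx1a and Lef1), where 5.9% of all genes tested did, and none had every knockout below (7.55% of all genes). In the inducible libraries 5 had every knockout below (Wnt3a, Wnt8b, Rspo1, Rspo2 and Lmx1a), where 12.2% of all genes did, and none above (10.4%). With the study's cut of 1.5-fold or more and an unadjusted limma P of 0.05 or less, 4 members were higher in the germline knockouts (Wnt8b and the 3 R-spondins) and 2.07% of all genes were. None was lower, against 0.667% of all genes. In the inducible knockouts only Rspo1 passed as lower by limma, against 0.49% of all genes, and none as higher, against 0.802%. These same values chose the members. The study names no test for its P, so its own calls can differ from these limma calls. After Benjamini-Hochberg adjustment of the limma P over all genes 0 of the 10 stayed at or under 0.05 in either comparison, where 1 of all germline and 5 of all inducible genes did.

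Single libraries decided several of these calls. Without germline wild-type replicate 1, or without wild-type replicate 2, Rspo2 was the only member that passed. Over all genes 157 of 13935 and 179 of 13951 passed in these fits, against 382 of 13938 with every library. Without inducible wild-type replicate 2 or knockout replicate 3 no member passed, and without knockout replicate 1 there were 4 (Wnt8b, Rspo1, Rspo2 and Lmx1a). Calls over all genes also moved with the library left out, as given in the closing section. These member counts alone therefore show nothing particular to the members. The inducible median of -0.49 became -0.21 when knockout replicate 3 was left out and -0.29 when wild-type replicate 2 was. Without knockout replicate 3, 2 of the 10 changes, those of Wnt2b and Wnt5a, were above 0.

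The libraries of 1 genotype also differed among themselves, and most members moved together there. In the germline wild-type group replicate 1 was lowest for 8 of the 10 genes and replicate 3 highest for 8, with a ratio of highest to lowest of 2.43 for Wnt8b and 2.20 for Rspo2. For 8 of the 10 members that ratio within the wild-types exceeded the ratio of the knockout to the wild-type mean. Summed over the 7 ligands and R-spondins, the germline libraries held 2717, 3455 and 4476 normalized counts in the wild-types and 5331, 7030 and 5337 in the knockouts.

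In the inducible table the corresponding sums were 8555 and 10228 in the wild-types and 7996, 7394 and 3933 in the knockouts. Knockout replicate 3 was the lowest library for all 10 members, at a median log2 difference of -1.13 from the wild-type mean, while replicates 1 and 2 were at -0.13 and -0.28. Wild-type replicate 1 itself stood at -0.14, so knockout replicate 1 lay within the spread of the wild-types by this measure. For all 10 members the ratio of highest to lowest within the knockouts exceeded the ratio between the group means. RNA was taken from bulk tissue, so fewer hem cells in a piece and less RNA per hem cell cannot be told apart.

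**Figure D3:**
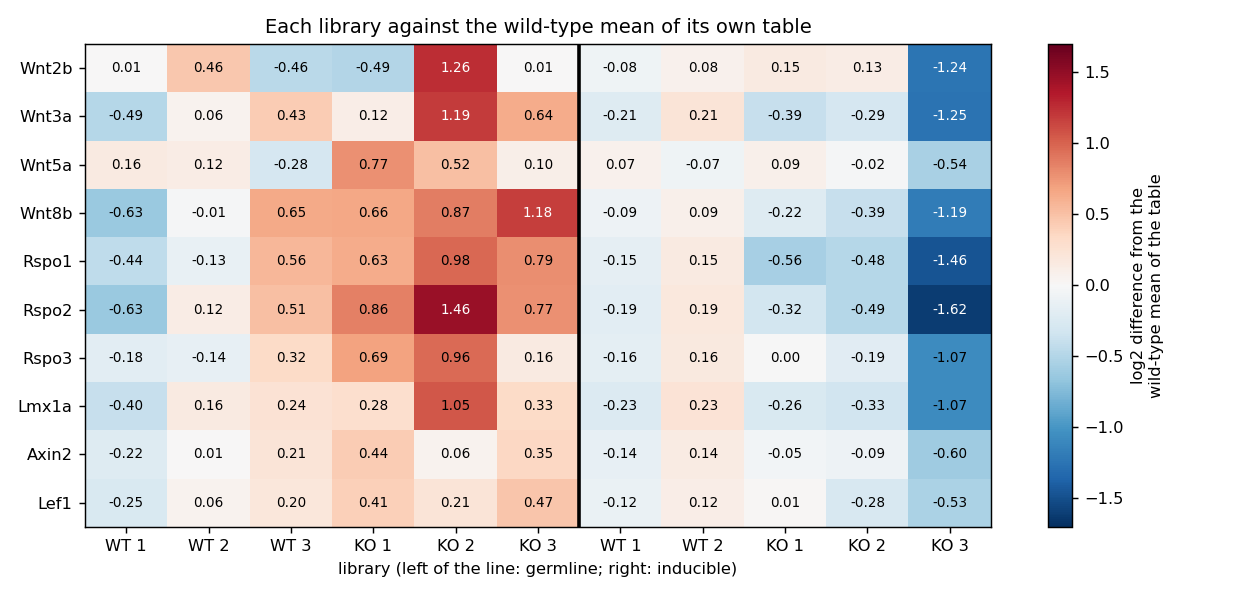
Log2 difference of each gene in each library from the wild-type mean of its own table (colour and printed value; rows are genes, columns are libraries, WT wild-type, KO knockout). Germline knockout replicate 2 holds the largest positive value, 1.46 for Rspo2, and inducible knockout replicate 3 the largest negative one, -1.62 for the same gene.

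Side by side, Rspo2 had the largest difference in the germline and Rspo1 in the inducible comparison, and Wnt2b, Wnt5a, Axin2 and Lef1 lay nearest 0 in both. The comparisons used different embryos and share no libraries, but the members were chosen for this pattern, so no test of it is given. Within the list, Wnt8b, Rspo1, Rspo2 and Lmx1a were the 4 whose groups did not overlap in either table. The share of all genes tested that did the same was not counted.

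**Figure D4:**
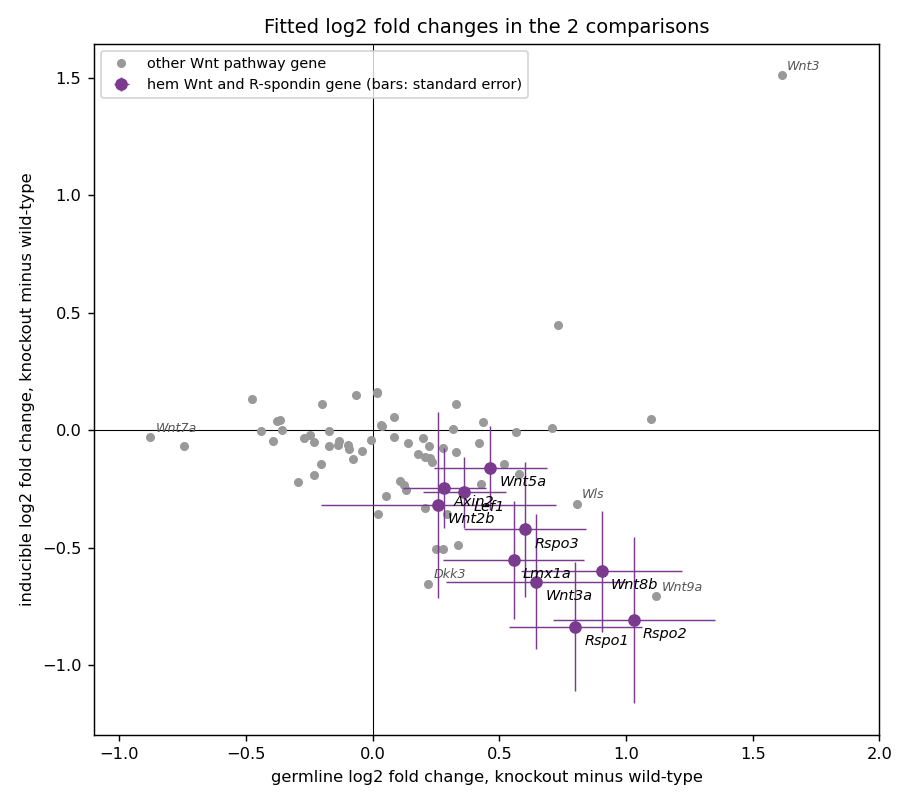
Fitted log2 fold change, knockout minus wild-type, in the germline (horizontal axis) and the inducible (vertical axis) comparison for the 10 genes (purple, bars are standard errors) and the other Wnt pathway genes tested in both tables (grey). All 10 lie at lower right, Rspo2 at 1.03 and -0.81, while Wnt3, the farthest point at upper right, lies at 1.61 and 1.51.

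The rest of the Wnt pathway was described from a list of 82 genes. In the germline comparison 66 were tested, with a median log2 fold change of 0.096; 2 were called higher and 2 lower. In the inducible comparison 68 were tested, with a median of -0.063; 1 was called higher and 1 lower. With limma 0 of them reached an adjusted p of 0.05, and the unadjusted P was 0.05 or less for 6 in the germline and 8 in the inducible table. Over all genes tested this held for 751 of 13938 and 846 of 14081. Without germline knockout replicate 2, the library low in mesenchyme markers, 17 of the listed pathway genes were called. Calls over all genes then rose from 382 of 13938 to 1229 of 14008. The median of the listed pathway genes lay nearer 0 than that of the 10 members in both tables. The members were chosen with their differences known, so nothing is read from this contrast.

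Among the other ligands and their secretion, Wnt9a measured 96.0, 104 and 139 normalized counts in the germline wild-types and 224, 326 and 197 in the knockouts, a log2 fold change of 1.12 ± 0.26 with a limma adjusted p of 0.779. In the inducible libraries it measured 265 and 381 in the wild-types and 249, 251 and 118 in the knockouts, also without overlap, but it was not called there (-0.70 ± 0.34). Wls, which carries Wnt proteins to the cell surface, measured 837, 680 and 992 in the germline wild-types and 2213, 1114 and 1224 in the knockouts (0.80 ± 0.28), highest in the knockout library with raised diencephalon markers. Porcn, the enzyme that attaches the lipid that Wnt proteins need, was not called in either table. The medians of Wls and Porcn were 0.66 in the germline and -0.23 in the inducible table. The call of Wls was lost without germline wild-type replicate 1, wild-type replicate 2 or knockout replicate 1, while that of Wnt9a was kept whichever library was left out.

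Of 8 other ligand genes tested in the germline comparison, 6 were above 0 and 2 below, with a median log2 fold change of 0.27. Of 7 tested in the inducible comparison, 6 were below 0 and 1 above, with a median of -0.33. All inducible knockouts lay below the wild-types for 4 of the 7, where 12.2% of all genes did. Among the 4 were Wnt5b (-0.51 ± 0.11) and Wnt7b (-0.35 ± 0.074). Neither was called, because both changes were below 1.5-fold. Their unadjusted limma P was 0.0020 and 0.0018, and the adjusted p 0.622 and 0.620. The germline groups of both overlapped (0.25 and 0.29). Wnt7a and Ndp in the germline and Wnt3 in the inducible comparison went against these directions. Wnt7a, a ligand of cortical progenitors, measured 402, 427 and 345 normalized counts in the germline wild-types and 150, 272 and 232 in the knockouts, a log2 fold change of -0.88 ± 0.25, and differed by -0.03 ± 0.086 in the inducible table. Ndp, whose product norrin binds Frizzled 4, was also lower in the germline knockouts (-0.75 ± 0.27). Both had an adjusted p of 0.779. Wnt3 measured 12.8 and 11.7 in the inducible wild-types and 58.5, 51.0 and 16.4 in the knockouts, a change of 1.51 ± 0.52 with an adjusted p of 0.825. In the germline table its knockout values were 179, 8.80 and 41.2 against 15.89, 8.06 and 15.95 in the wild-types, and it was not called; the highest value was again in knockout replicate 1. Wnt7a kept its call whichever library was left out, Ndp lost it when knockout replicate 1 (-0.58) or a single wild-type was left out, and Wnt3 kept its inducible call only when knockout replicate 3 was left out.

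Medians of the Wnt receptors and intracellular parts of the pathway lay near 0, with single genes farther out. None of the 15 Frizzled, LRP, ROR and RYK receptor genes was called in either table, with medians of 0.11 and -0.065. The germline difference was 0.71 ± 0.74 for Fzd10, with overlapping groups, and 0.58 ± 0.26 for Fzd7, with all knockouts above. Of the R-spondin receptors and the ligases they act on, 3 were tested in the germline table and 4 in the inducible table, and none was called. Their medians were 0.28 in the germline and -0.026 in the inducible table. Znrf3, itself a Wnt target, changed by 0.28 ± 0.14 in the germline and -0.077 ± 0.13 in the inducible knockouts. Among 19 intracellular genes, including Ctnnb1, which encodes β-catenin, none was called, and the medians were -0.044 and -0.045. Tcf7l2, a TCF/LEF factor that also marks the diencephalon, had a germline difference of 1.10 ± 0.71 with overlapping groups. Without germline knockout replicate 2, Fzd4, Fzd7, Fzd10, Ror1 and Tcf7l2 were called.

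Antagonists and targets completed the list. Of the secreted antagonists only Dkk3, a member of the Dickkopf family, was called, and only in the inducible table: 718 and 799 normalized counts in the wild-types against 495, 595 and 380 in the knockouts, a log2 fold change of -0.65 ± 0.17 with an adjusted p of 0.743. Without knockout replicate 3 it was -0.48, and it was not called then or without wild-type replicate 2. None of 7 target genes beyond Axin2 and Lef1 was called in either comparison, with medians of 0.023 and -0.094. Nkd1, a feedback inhibitor, differed by 0.13 ± 0.18 in the germline and -0.25 ± 0.11 in the inducible table.

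Markers of tissues next to the hem were compared in the same way. Of 7 dorsal midline BMP genes tested, Bmp2, Bmp6 and Msx2 were called higher in the germline knockouts and the same 3 were called lower in the inducible knockouts, with list medians of 0.74 and -0.53. Over all genes 2.07% were called higher in the germline and 0.49% lower in the inducible knockouts. This list too was chosen with earlier results of these data known. Msx2, a homeobox gene that responds to BMP, measured 28.7, 68.0 and 63.0 normalized counts in the germline wild-types and 351, 160 and 131 in the knockouts (1.94 ± 0.48). Its inducible values were 154 and 231 against 117, 105 and 56.8 (-1.08 ± 0.32). Bmp2, a BMP ligand, differed by 1.37 ± 0.46 and -1.34 ± 0.52, and Bmp6, another, by 0.74 ± 0.29 and -0.87 ± 0.19. Adjusted p lay between 0.656 and 0.825 for the 3 genes in both tables. Bmp6 lost its germline call without wild-type replicate 1 or 2 or knockout replicate 1 or 2, Bmp2 without wild-type replicate 1, and in the inducible table Bmp2 without either wild-type and Msx2 without wild-type replicate 2. Without inducible knockout replicate 3 Bmp2 differed by -0.75.

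The choroid plexus grows from the midline beside the hem, and the median over 8 of its markers was below 0 in both tables, at -0.39 for the germline and -0.52 for the inducible knockouts. For the germline, 2 of the 8, Otx2 (0.62 ± 0.43) and Sostdc1 (0.28 ± 0.37), were above 0. In the inducible knockouts Clic6 (-0.61 ± 0.21) and Foxj1 (-0.84 ± 0.20), a chloride channel gene and a regulator of motile cilia, were called lower. The call of Clic6 was lost without wild-type replicate 2, knockout replicate 2 or knockout replicate 3. Ttr, which encodes transthyretin, and Kcne2 were called lower in the germline knockouts (-1.77 ± 0.64 and -2.46 ± 0.88), each with overlapping groups. Over all genes 0.667% were called lower in the germline and 0.49% in the inducible knockouts. Cajal-Retzius markers, for neurons that leave the hem early, had medians of -0.016 and -0.12, and none was called. The part of these neighbours in the members' values was not tested.

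Lists for tissue farther away had germline and inducible medians of 1.701 and 0.077 (diencephalon), 0.0066 and 0.21 (ventral telencephalon), 0.13 and -0.15 (dorsal pallium), -0.68 and 0.069 (cranial mesenchyme) and -0.40 and 0.093 (endothelium). Of their genes Olig3 alone was called, higher in the inducible knockouts with overlapping groups (3.06 ± 1.15). Inducible knockout replicate 3, the lowest library for all 10 members, was also the highest for ventral telencephalon markers, with a summed level of 13199 normalized counts against 4907 and 10896 in the wild-types and 5742 and 7009 in the other knockouts. Its dorsal pallium markers had a median of -0.43 and were summed to 31264, against 35524 and 40280 in the wild-types. Germline knockout replicate 2, the highest library for 6 members, held 36184 of the dorsal pallium markers against 18224 to 19412 in the wild-types, and 600 of the cranial mesenchyme markers against 5058 to 8947. Germline knockout replicate 1 held 21725 of the mesenchyme and 6079 of the diencephalon markers, the latter against 1122 to 2254 in the wild-types. No list had a marker at 0 in all libraries. Their part in the members' differences was not tested.

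**Figure D5:**
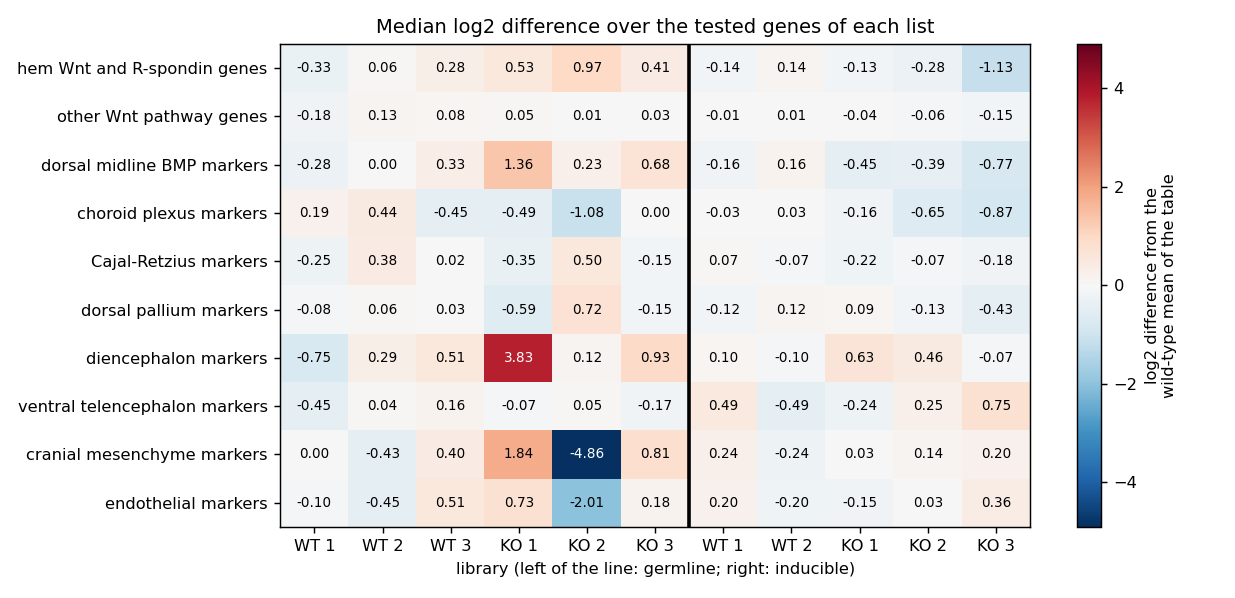
Median log2 difference from the wild-type mean of the table over the tested genes of each list (rows) in each library (columns; WT wild-type, KO knockout). The 10 genes are in the top row; the diencephalon row reaches 3.83 in germline knockout replicate 1, and the cranial mesenchyme row -4.86 in germline knockout replicate 2.

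Genes with the most similar pattern were ranked by Pearson r over the 11 libraries with the median profile of the 7 secreted members, each table centred on its own mean. This is a description over 13737 genes, in libraries that differ both in genotype and in their tissue markers. Rspo2 followed the profile most closely among the members (0.994), then Rspo1 (0.970), Lmx1a (0.947), Wnt3a (0.942), Wnt8b (0.937) and Rspo3 (0.932). Lef1 and Axin2 came lower, at 0.858 and 0.807, and Wnt2b and Wnt5a stood at 0.569 and 0.559. Except for Lmx1a, Axin2 and Lef1, these genes are parts of the profile itself.

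Of genes outside the list, Wnt9a (0.966) and Bmp2 (0.959) followed the profile most closely. Dock1 (0.952), Enkd1 (0.950), Casz1 (0.941), Tmem132c (0.935), Nek4 and Col4a5 (0.917 each), Cdk5rap2 (0.916) and Timeless (0.898) came next. A like profile did not mean a like size: Casz1, a zinc finger gene, had log2 fold changes of 1.15 and -0.80, whereas Nek4, a kinase gene, had 0.089 and -0.11. With any 1 library left out, r stayed at or above 0.856 for each of these 10 genes.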

How the data were processed

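RNA from E12.5 cortex was sequenced after poly(A) selection. Per the study, reads were aligned to mm9 with TopHat, counted on RefSeq genes and normalized by the authors with edgeR's trimmed mean of M-values (TMM); the submitters' processing notes list TopHat 1.2.0, and the study names another version. The deposited signal is 1 value per gene and library, normalized counts scaled by the authors within each table, neither logged nor divided by length. The values are not whole, so no count test was run, and depth in reads is unknown. No per-sample column was left unused (0).

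Values were analysed as log2(value + 1) with limma 3.58.1 in R 4.3.3 (lmFit, eBayes with trend, two-sided), each table alone, for genes with a mean of at least 10; fold changes on this scale understate those of low genes. Genes were called at a fold change of at least 1.5 and P of at most 0.05, and Benjamini-Hochberg adjustment ran over all genes tested. The procedure was tested on simulated counts with less spread than, for example, Wnt8b in the germline wild-types (834 ± 363 normalized counts, SD, n = 3). Its performance at the spread of these libraries was therefore not tested. Groups and replicate numbers came from the labels, matched to the column names of the tables. The study's supplementary list numbers the same germline wild-type values in another order, so every germline wild-type replicate number, the pairing check and the replicate block rest on the table's numbering. Kif20a was also tested by exact permutation. Lengths were taken from GENCODE M1, and promoters from RefSeq.

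The members, gene lists and alternatives were chosen with earlier results of these data known. Named besides the members and Kif20a were, in each comparison and direction, at most 5 called pathway genes and 5 called marker genes with groups that did not overlap, the Y-linked genes, and the 10 genes most like the hem profile. Genes named outside this rule (Wnt5b, Wnt7b, Porcn, Znrf3, Nkd1, Ctnnb1, Fzd4, Fzd7, Fzd10, Ror1, Tcf7l2, Otx2, Sostdc1, Ttr, Kcne2, Olig3) were chosen after their values were seen. Alternatives were other pseudocounts, filters and scalings, array weights, no trend, a replicate block and leaving out each library.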

Additional observations from a re-analysis of the deposited data

Results flagged for a closer look

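In 4 members every knockout library lay above every wild-type library in the germline comparison and below every wild-type library in the inducible comparison. Of all genes tested, 5.9% lay above in the germline and 12.2% below in the inducible comparison. The share of genes that did both was not counted. The germline log2 fold change exceeded the inducible one by 1.503 for Wnt8b, 1.63 for Rspo1, 1.84 for Rspo2 and 1.11 for Lmx1a. The difference between the comparisons was not tested, since the genes were chosen with it known. In the inducible comparison all knockout and no wild-type libraries held Y-linked transcripts, so the sex of the embryos cannot be told apart from the genotype there.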

How the results depend on the processing

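Over 150 germline and 140 inducible recomputations of single members, each value moved by less than the pooled SD within groups. Leaving out a germline library or an inducible knockout cannot move a value by more than that SD. The filters and the fit with no trend leave the value unchanged. Nothing is therefore read from this measure. The signs of Wnt2b (-0.24 to 0.64 in the germline and -0.55 to 0.14 in the inducible table) and of Wnt5a in the inducible table (-0.28 to 0.032) changed on leaving out libraries, and germline Wnt2b was also below 0 with array weights (-0.14). The replicate block, like leaving out knockout replicate 3, put both inducible changes above 0 (0.14 and 0.032). The member median ran from 0.39 with array weights to 0.72 in the germline and from -0.67 to -0.21 in the inducible comparison.

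Counts of calls moved more. In the germline comparison 382 genes were called, 75.7% of them higher; array weights gave 1044 (53.6% higher), no filter 455 (64.6% higher), and leaving out libraries 157 to 1229, with 47.8% higher without knockout replicate 2 and 60.5% and 63.8% without the knockout and the wild-type replicate 3. Members called numbered 4, but 2 with no filter, 1 with array weights and 1 to 4 without single libraries. Pathway genes called numbered 4, but 14 with array weights and 2 to 17 without single libraries, the highest without knockout replicate 2.

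In the inducible comparison 182 genes were called, 347 with no filter, 72 at a mean of at least 50, 80 when divided by length (genes without a length leave) and 126 to 322 without single libraries (77.6% higher without wild-type replicate 1, against 62.1%). The 1 member called became 0 with no filter, no trend or the replicate block, and 0 to 4 without single libraries. The 2 pathway genes called became 1 with no filter, at a mean of at least 50, when divided by length and under the replicate block, and 0 to 4 without single libraries. Kif20a kept its direction; its inducible change of -0.70 lost an adjusted p of 0.05 with no filter and with no trend, and under the replicate block it was -0.67 with adjusted p = 0.3. Without single libraries it ran from -2.66 to -2.44, with adjusted p above 0.05 in 4 of 6 cases (0.106 to 0.185), and from -0.74 to -0.67, above 0.05 in 3 of 5 (0.142 to 0.193). The causes were not tested.

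Single values of other genes were compared only for listed genes that were called with groups that did not overlap. Among these no direction changed. Wnt7a, Wnt9a and Msx2 kept their germline calls in all 15 alternatives, Bmp6 and Foxj1 their inducible calls in all 14, and the calls of Wls, Ndp, Bmp6, Wnt3, Dkk3, Bmp2, Msx2 and Clic6 were lost in 1 to 6 alternatives. Same-numbered wild-type and knockout libraries had correlations of deviations of -0.116, 0.306 and 0.247 in the germline and -0.352 and -0.0513 in the inducible table. Those of differently numbered libraries ran from -0.357 to 0.334 and from -0.31 to 0.352. The numbering is the table's, which the study's list does not share for the germline wild-types. The check therefore cannot tell which libraries were littermates. In the main fit the numbers were treated as names and litter was not modelled. In the block inducible knockout replicate 3 has no partner and adds nothing to the difference. The block gave 376 and 163 genes called, and 3 germline members. With 2 or 3 libraries in a group and no read depth, small differences of the low members, such as Wnt3a, cannot be resolved.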
